A study of Macaca mulatta and Mus musculus with 5 samples.

Results

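The 5 receptors of lymphocyte positioning CCR7, GPR183, CCR6, S1PR5 and CD44 were followed at the RNA level through B cell stages, T and NK cells and dendritic cells of the meninges and spleen of macaques, and through the meninges of mice. The genes were chosen by symbol, and all 5 were found among the 14949 genes listed in the macaque tables and, in mouse spelling, among the 31017 genes of the mouse table. Each of the 5 had at least 1 unique molecular identifier (UMI, a tag that marks 1 captured RNA molecule) in every library. CCR7, GPR183, CD44 and CCR6 passed the filter on low counts in all 6 macaque comparisons of tissues, and S1PR5 passed it in 1 of them, the comparison of cytotoxic cells.

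CCR7 binds the chemokines CCL19 and CCL21 and leads B and T cells to the T cell zones of lymphoid tissue. GPR183 (also called EBI2) senses oxysterols such as 7α,25-dihydroxycholesterol. It moves activated B cells to the outer follicle and also guides dendritic cells. CCR6 responds to CCL20, and S1PR5 responds to sphingosine-1-phosphate and lets NK and effector T cells leave tissue. CD44 is an adhesion receptor for hyaluronan that activated and memory lymphocytes carry in large amounts.

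Single-cell RNA was measured with 10x 3'-end chemistry in a study of B cell development in the meninges, the membranes around the brain. The macaque libraries came from Chinese rhesus macaques, female and 4 to 8 years old, with 2 channels (10x lanes) of meningeal and 2 of splenic cells, each loaded with 8000 cells. The mouse library held meningeal cells of male C57BL/6 mice aged 2, 21 and 48 days, marked with hashtag antibodies, pooled and loaded at 30000 cells in 1 channel, and the ages were not analysed apart here. By the labels, cells were sorted on CD45 and CD11b, and in macaque also on CD3, with a dash after each marker. The dash may be a separator or a minus sign, and UMIs of the CD45 gene were found in 82.2 to 87.9% of cells per library.

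After filtering, 4068 and 4308 cells remained in the meningeal channels, 5839 and 6783 in the splenic channels and 13440 of 13947 barcodes in the mouse library. Median depth was 4096 and 4034 UMIs per cell in meninges, 2397 and 2665.5 in spleen and 6309 in mouse. Cells were assigned to gates by their raw marker UMIs, so a gate is named for its markers and is not a proven cell type. Cells with markers of more than 1 lineage made up 2.90 to 3.37% of the macaque channels and 3.32% of the mouse library, and were left out. Libraries shared 4 to 28 cell barcodes per pair. Nothing in the labels tells if both channels of a tissue came from 1 animal or from several, so p-values measure only the spread between channels, which may be technical.

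The macaque B cell gates were small pre-B (RAG1 or RAG2, not cycling), FCER2+ B (the CD23 gene, which marks naive follicular B cells), IGHM+ FCER2- B, IGHM- B (no IgM heavy chain UMI), atypical B (at least 2 UMIs of FCRL5 and ITGAX together), germinal centre B (by RGS13 and MYBL1, among others) and the remaining other B (1 IGHM UMI). Cells with T or NK markers were divided into GZMB+ (a cytotoxic granule enzyme), GZMK+ without GZMB, IL7R+ T and other T/NK. A gate set by the absence of a UMI, such as IGHM- B, depends on depth, which differed between tissues. Splits of a gate by a UMI of a further marker, given below, also depend on the depth of each cell. Their sides without the UMI can hold cells in which it was missed. The gates with at least 50 cells in each of the 4 channels were compared between tissues, 6 in all: FCER2+ B with 648 and 655 meningeal and 1792 and 2011 splenic cells, IGHM+ FCER2- B, IGHM- B, atypical B, other B and GZMB+ T/NK with 1219 and 1279 against 284 and 375 cells. Although CD3 is named in the sort, UMIs of CD3D, CD3E or CD3G were present in 1036 of 1219 and 1059 of 1279 meningeal GZMB+ cells. A level below is a gene's UMIs divided by all UMIs of the gate in 1 channel and multiplied by 1000000 (CPM). Levels are compared for 1 gene between gates, not between genes.

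**Figure D1:**
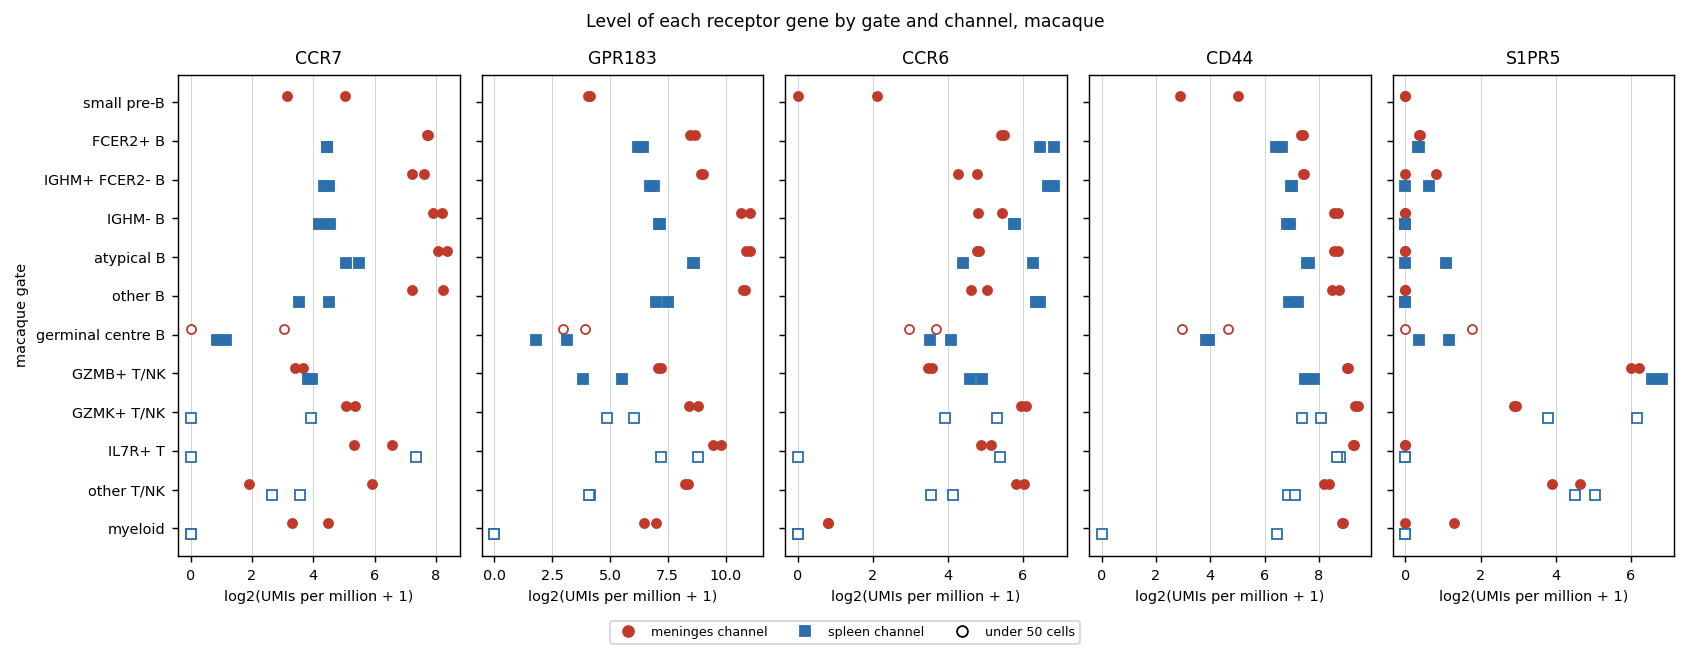
Level of each receptor gene in each macaque gate, on the scale log2(CPM + 1). Each point is 1 channel (red circles meninges, blue squares spleen), and open symbols are gates with under 50 cells in that channel. CCR7 and GPR183 of the 5 mature B cell gates lie higher in meninges than in spleen, CCR6 of FCER2+ B cells lies lower, and S1PR5 is near 0 outside the T and NK gates.

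CCR7 was higher in meningeal than in splenic B cells of every mature gate tested, by 7.77- to 13.8-fold in mean CPM, and was not called different in GZMB+ cells. In FCER2+ B cells the meningeal channels had 214 and 207 CPM and the splenic channels 21.0 and 20.6 CPM. In IGHM- B cells the levels were 238 and 294 CPM against 17.2 and 22.6 CPM, and in atypical B cells 264 and 325 CPM against 32.4 and 43.5 CPM. The tissues did not overlap in these gates.

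The log2 difference of CCR7, meninges minus spleen, was 3.42 ± 0.11 (SE, 2 channels a tissue) in FCER2+ B cells with an adjusted p of 2.24e-12 (edgeR quasi-likelihood test, Benjamini-Hochberg over 9814 genes). It was 3.09 ± 0.16 in IGHM+ FCER2- B, 3.90 ± 0.19 in IGHM- B, 3.14 ± 0.17 in atypical B and 4.07 ± 0.37 in other B cells, each past the threshold of 0.05 in the same edgeR test. In FCER2+ B cells all 4 of the receptor genes tested were called (3 higher, 1 lower), beside 25.3% of all genes tested in that gate, 15% higher and 10.3% lower. A call was thus common among all genes of that gate.

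The other B gate rested on few meningeal cells (57 and 52). Without splenic channel 2 no gene of that gate was called, and the CCR7 difference there was 3.55 with an adjusted p of 0.155 (edgeR). In other B cells 12.7% of all genes tested had been called with all channels.

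T and NK cells of the meninges had less CCR7 than FCER2+ B cells, with -4.47 ± 0.23 in GZMB+, -2.65 ± 0.40 in GZMK+, -1.64 ± 0.35 in IL7R+ and -2.57 ± 0.39 in other T/NK cells, each past the edgeR threshold. In the first of these contrasts 52.1% of all genes were called. IL7R+ T cells, the gate nearest to naive and memory T cells, had 38.9 and 93.5 CPM in meninges.

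GZMB+ T/NK cells had little CCR7 in either tissue, 11.7 and 9.48 CPM in meninges and 13.04 and 14.6 CPM in spleen. The difference was -0.16 ± 0.34 with a 95% interval of -0.89 to 0.57 and an adjusted p of 0.767 (edgeR). The tissue difference of CCR7 in GZMB+ cells was therefore compared directly with that in FCER2+ B cells, as an interaction of tissue and gate with the channel as a block, and it was lower by 3.58 ± 0.52 on the log2 scale (adjusted p = 5.49e-06, edgeR), a contrast in which 10.6% of all genes were called. GZMB+ cells without a CD3 UMI held more CCR7 than those with one. In meninges they had 35.9 and 15.5 CPM against 7.47 and 8.34 CPM, and in spleen 39.5 and 51.6 CPM against 0 and 1.78 CPM. This split was made after the levels were known and is given as a description. Cells with a CD3 UMI had more CCR7 in meninges than in spleen, and those without one had less. The difference of the whole gate and its interaction thus depend on the mix of both sides in each tissue. The part of that mix was not tested.

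The share of FCER2+ B cells with a CCR7 UMI was 32.7 and 29.0% in meninges and 6.31 and 5.37% in spleen. Thinning each cell to 1000 UMIs, because meningeal cells were deeper, gave 13.7 and 10.5% against 1.99 and 1.37%, with 19 and 25 meningeal and 483 and 327 splenic cells too shallow to enter. In germinal centre B cells of spleen, which are known to have little CCR7, 0.454 and 0.810% of unthinned cells and none of 429 and 479 thinned cells had a CCR7 UMI, at median depths of 7637 and 5865.5 UMIs.

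GPR183 was higher in meninges in all 6 gates, and the difference was larger in IGHM- and other B cells than in FCER2+ B cells. FCER2+ B cells had 355 and 407 CPM in meninges and 85.7 and 72.5 CPM in spleen. IGHM- B cells had 1619 and 2120 CPM against 143 and 140 CPM, and GZMB+ cells had 133 and 146 CPM against 44.9 and 13.2 CPM. The meningeal channels lay above the splenic channels in each of these gates, but the 2 splenic channels of GZMB+ cells differed by more than the 2 meningeal ones.

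The log2 difference of GPR183 was 2.35 ± 0.11 in FCER2+ B (adjusted p = 1.84e-10), 2.19 ± 0.12 in IGHM+ FCER2- B, 3.91 ± 0.13 in IGHM- B (1.03e-09), 2.53 ± 0.08 in atypical B, 3.72 ± 0.22 in other B and 2.52 ± 0.26 in GZMB+ cells (7.47e-06), all by edgeR. All genes called made up 35.4% of those tested in IGHM+ FCER2- B, 23.1% in IGHM- B, 19.7% in atypical B and 26.1% in GZMB+ cells. Of the 5 receptor genes, those called were 4 of 4 tested in IGHM+ FCER2- B, 3 of 4 in IGHM- B, 3 of 4 in atypical B, 4 of 4 in other B and 3 of 5 in GZMB+ cells. The GZMB+ value moved to 3.61 without splenic channel 1 and 1.87 without splenic channel 2, and stayed past the threshold both times.

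In the interaction test the GPR183 difference of IGHM- B cells exceeded that of FCER2+ B cells by 1.57 ± 0.16 (adjusted p = 1.14e-08, edgeR, where 6.25% of all genes were called). That of other B cells exceeded it by 1.36 ± 0.18 (adjusted p = 2.88e-06, edgeR, with 2.64% called). Both gates are set by the count of IGHM UMIs and so depend on depth, which was lower in spleen. The part of depth in these 2 interactions was not tested. The interaction was 0.19 ± 0.15 for atypical B cells (adjusted p = 0.602, edgeR, 4.42% of genes called) and 0.18 ± 0.26 for GZMB+ cells (0.729), with 95% intervals of -0.12 to 0.51 and -0.34 to 0.70.

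Among meningeal gates with at least 50 cells in each channel, GPR183 took its highest levels in atypical B cells (1899 and 2161 CPM), IGHM- B cells and other B cells (1702 and 1841 CPM), and neighbours among these 3 overlapped between channels. IL7R+ T cells followed with 708 and 880 CPM, apart from the gates above and below. Small pre-B cells were the lowest of these gates with 15.8 and 16.7 CPM. Relative to meningeal FCER2+ B cells, edgeR with the channel as a block gave 2.29 ± 0.11 in atypical B (adjusted p = 1.64e-16), 2.25 ± 0.12 in IGHM- B (5.96e-16), 2.08 ± 0.12 in other B (1.49e-13) and 1.10 ± 0.13 in IL7R+ T cells (6.44e-08), beside 30, 21.6, 9.05 and 25.7% of all genes called in these contrasts. In spleen, atypical B cells again led, with 398 and 388 CPM, 2.10 ± 0.12 above FCER2+ B cells (adjusted p = 6.69e-20, edgeR, 19.6% called). Splenic IGHM- and other B cells exceeded FCER2+ B cells by 0.71 ± 0.14 and 0.70 ± 0.15 (15.5 and 10.7% of genes called), and splenic GZMB+ cells were lower, with -1.72 ± 0.24 (46.6% called).

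Thinned to 1000 UMIs, 71.4 and 79.5% of meningeal and 30.1 and 34.2% of splenic atypical B cells had a GPR183 UMI, against 88.6 and 92.4% and 60.7 and 56.7% unthinned. In splenic germinal centre B cells 0.233 and 0.835% of thinned and 1.59 and 3.85% of unthinned cells had one. The atypical gate takes cells by the sum of FCRL5 and ITGAX, and within it the cells with an ITGAX UMI had 2014 and 2210 CPM of GPR183 in meninges and those without one, 23 and 27 cells, 1127 and 1800 CPM (430 and 419 against 268 and 228 CPM in spleen). The higher side was the ITGAX side in 4 of 4 channels, which is a description of a split chosen with the levels in view.

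CD44 was higher in the meninges in all 6 gates, with the largest value in IGHM- B cells. FCER2+ B cells had 162 and 171 CPM against 98.7 and 84.7 CPM in spleen, and IGHM- B cells 381 and 415 CPM against 122 and 112 CPM. GZMB+ cells had 534 and 523 CPM against 223 and 180 CPM. No splenic channel reached the level of a meningeal channel in these gates.

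Its log2 difference was 0.94 ± 0.10 in FCER2+ B (adjusted p = 3.97e-06), 1.95 ± 0.12 in IGHM- B (1.27e-07), 1.21 ± 0.10 in atypical B, 1.76 ± 0.21 in other B and 1.62 ± 0.10 in GZMB+ cells (3.48e-08), by edgeR. The smallest was 0.49 ± 0.12 in IGHM+ FCER2- B cells (adjusted p = 0.00299). That call was lost without meningeal channel 1 (0.48, adjusted p = 0.0583) and when cells were thinned to 1000 UMIs (0.15, adjusted p = 0.656). The interaction with FCER2+ B cells was 1.03 ± 0.15 for IGHM- B (adjusted p = 7.63e-06), 0.81 ± 0.18 for other B (0.00727) and 0.69 ± 0.14 for GZMB+ cells (0.000977), all by edgeR. Of these interactions, none kept an adjusted p under 0.05 with cells thinned (0.134, 0.868 and 0.0509).

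Among the same meningeal gates the order of CD44 levels ran from GZMK+ T/NK (694 and 640 CPM) and IL7R+ T cells (630 and 617 CPM) through GZMB+ cells to the IGHM-, atypical and other B gates, which overlapped between channels. Other T/NK cells followed with 291 and 331 CPM. FCER2+ and IGHM+ FCER2- B cells lay lower and overlapped, and small pre-B cells were the lowest of these gates with 6.33 and 31.8 CPM. Against meningeal FCER2+ B cells the difference was 1.91 ± 0.13 in GZMK+, 1.94 ± 0.14 in IL7R+ and 1.51 ± 0.11 in GZMB+ cells, each past the edgeR threshold, with 29% of all genes called in the first contrast. The myeloid gate had 471 and 459 CPM, 1.49 ± 0.11 above FCER2+ B cells in a contrast with 55.9% of genes called. Its channel 1 also carried 6423 CPM of 7 stromal genes against 8.05 CPM in channel 2, and their part in the CD44 level was not tested.

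CCR6 ran the other way: it was lower in the meninges in FCER2+ B and IGHM+ FCER2- B cells. FCER2+ B cells had 43.8 and 41.5 CPM in meninges and 112 and 86.6 CPM in spleen, and IGHM+ FCER2- B cells 26.2 and 18.2 CPM against 113 and 101 CPM. The tissues did not overlap in either gate. The log2 differences were -1.14 ± 0.13 (adjusted p = 6.74e-06) and -2.25 ± 0.17 (4.39e-09) by edgeR, and the second exceeded the first by 1.09 ± 0.26 in size (interaction -1.09, adjusted p = 0.00792, edgeR, 3.55% of genes called). Without the channel block that interaction had an adjusted p of 0.0856 (edgeR). The IGHM+ FCER2- gate is set by the absence of an FCER2 UMI and so depends on depth, which was lower in spleen. The part of depth in this interaction was not tested. Within the meninges IGHM+ FCER2- B cells had less CCR6 than FCER2+ B cells (-1.11 ± 0.18, adjusted p = 4.84e-05, 8.88% of genes called), and within the spleen the value was 0.00 ± 0.13 (adjusted p = 0.998, 1.48% called), both by edgeR.

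In GZMB+ cells CCR6 was low, 9.98 and 10.9 CPM in meninges and 23.2 and 29.1 CPM in spleen, with a difference of -1.10 ± 0.28 (adjusted p = 0.00998, edgeR). This call was lost with DESeq2 (adjusted p = 0.133), with thinned cells (0.422) and without splenic channel 2 (0.122). B cell marker genes summed to 36.5 and 38.3 CPM in meningeal and 161 and 144 CPM in splenic GZMB+ cells. If those marker UMIs had come with CCR6 in the ratio found in FCER2+ B cells of the same channel, they would bring 0.320 and 0.336 CPM of CCR6 in meninges and 3.20 and 2.24 CPM in spleen. The same ratio gives 0.532 to 1.67 CPM for CCR7 and 1.88 to 3.29 CPM for GPR183 in that gate. The ratio assumes RNA of the FCER2+ B cell makeup in cells gated for few B cell markers, and the part of B cell RNA in these levels was not tested.

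CCR6 did not pass the threshold in IGHM- B cells (42.7 and 26.6 CPM against 54.0 and 53.4 CPM, adjusted p = 0.235) or in atypical B cells (adjusted p = 0.182, edgeR). In the atypical gate the splenic channels disagreed, with 76.2 and 20.1 CPM, while both meningeal channels lay between them at 27.2 and 26.2 CPM. Without splenic channel 1 the sign turned to 0.56 and without splenic channel 2 the difference was -1.34 with an adjusted p of 2.77e-05 (edgeR). In other B cells the difference of -1.44 ± 0.39 (adjusted p = 0.0162, edgeR) was lost when any 1 channel was left out.

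Among the same meningeal gates CCR6 was highest in GZMK+ T/NK (66.1 and 61.1 CPM) and other T/NK cells (55.4 and 64.0 CPM), which overlapped, and then in FCER2+ B cells. The higher value of other T/NK than of FCER2+ B cells (0.69 ± 0.26, adjusted p = 0.047, edgeR, 25.4% of genes called) was lost in every alternative run for it. Myeloid cells had 0.742 and 0.731 CPM, with a CCR6 UMI in 0.450 and 0.429% of cells at median depths of 6402.5 and 6389, which is read here as the background. FCER2+ B cells had one in 12.5 and 11.9% of meningeal and 25.1 and 21.8% of splenic cells, and after thinning in 3.66 and 3.02% and in 9.24 and 8.37%. FCER2+ B cells with a UMI of CR2 (complement receptor 2) held more CCR6 than those without it in 4 of 4 channels, 75.1 and 81.9 against 18.2 and 8.72 CPM in meninges and 131 and 108 against 69.2 and 46.6 CPM in spleen, as a description.

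S1PR5 was carried by T and NK gates and hardly any B cell. GZMB+ cells had 63.1 and 72.7 CPM in meninges (297 and 353 UMIs) and 112 and 92.7 CPM in spleen (77 and 70 UMIs). The difference of -0.36 ± 0.15 did not pass the threshold (95% interval -0.68 to -0.04, adjusted p = 0.0899, edgeR). In cells with at most 5 immediate early UMIs per 1000 the sign turned (0.13, adjusted p = 0.591, edgeR) and the tissues overlapped, with 90.3 and 111 CPM in meninges and 112 and 92.5 CPM in spleen. Meningeal GZMB+ cells above that limit had 33.0 and 31.4 CPM. FCER2+ B cells held 1 UMI in each meningeal and 2 in each splenic channel, with a UMI in 0.099 to 0.154% of cells, against 15.7 to 20.4% of GZMB+ cells.

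Within the T and NK gates of the meninges, S1PR5 stood at 13.9 and 24.0 CPM in other T/NK and at 6.61 and 6.43 CPM in GZMK+ cells, from 2 UMIs in each channel. IL7R+ T cells had no S1PR5 UMI. GZMB+ cells that also had a GZMK UMI carried less S1PR5 than those without, 40.0 and 41.9 against 89.2 and 110 CPM in meninges and 83.1 and 55.3 against 137 and 121 CPM in spleen. GPR183 was the other way round across the same split, with 212 and 243 against 43.4 and 29.5 CPM in meninges and 73.9 and 18.4 against 19.2 and 9.29 CPM in spleen. Each direction held in 4 of 4 channels, and the split was made with the levels known.

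**Figure D2:**
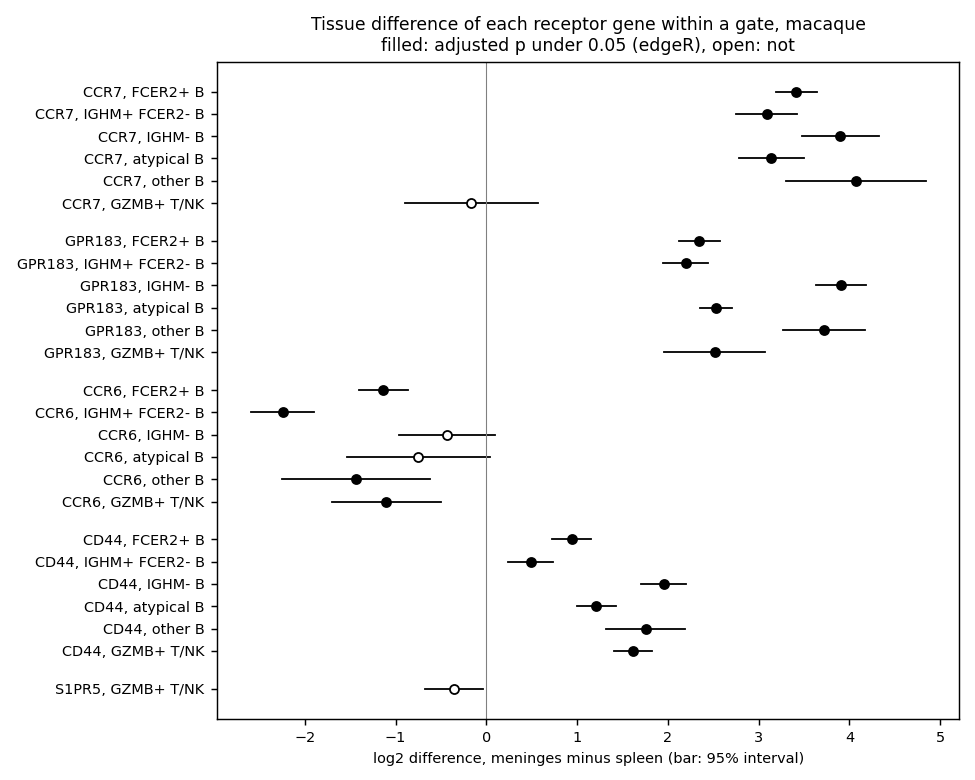
Difference between tissues for each receptor gene and gate, meninges minus spleen on the log2 scale, with 95% intervals from edgeR over 2 channels a tissue. Filled points have an adjusted p under 0.05. CCR7, GPR183 and CD44 of the 5 mature B cell gates are on the right of 0 and CCR6 is on the left, with open points for CCR6 in IGHM- and atypical B cells and for CCR7 and S1PR5 in GZMB+ cells.

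Small pre-B cells and germinal centre B cells had low levels of CCR7, GPR183, CCR6 and CD44. Small pre-B cells (197 and 182 cells, found in meninges only) had 7.91 and 31.8 CPM of CCR7, 15.8 and 16.7 CPM of GPR183 and 0 and 3.34 CPM of CCR6. Against meningeal FCER2+ B cells the log2 differences were -3.72 ± 0.35 for CCR7, -4.83 ± 0.23 for GPR183, -4.92 ± 0.51 for CCR6 and -3.43 ± 0.24 for CD44, with adjusted p from 1.1e-16 to 2.82e-09 (edgeR, 32.5% of genes called). The CCR6 value rests on a channel with no UMI, so its size depends on how zero counts are handled.

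Splenic germinal centre B cells (441 and 494 cells) had 0.829 and 1.25 CPM of CCR7, 2.49 and 7.81 CPM of GPR183, 10.5 and 15.9 CPM of CCR6 and 14.4 and 13.4 CPM of CD44. They were lower than splenic FCER2+ B cells by edgeR in all 4 genes, with -4.39 ± 0.34, -4.08 ± 0.21, -3.03 ± 0.19 and -2.83 ± 0.14 and adjusted p of at most 3.37e-16, in a contrast where 57.4% of all genes were called. The meningeal germinal centre gate held 46 and 48 cells and was not tested. Its levels of CCR7 were 0 and 7.16 CPM and of GPR183 6.74 and 14.3 CPM.

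Dendritic cells were too few in macaque for a test. The gate held 11 and 8 meningeal and 1 and 5 splenic cells, with GPR183 at 723 and 1093 CPM in meninges from 118 and 123 UMIs and at 97.2 and 42.7 CPM in spleen from 1 and 2 UMIs. CCR7, the receptor that migrating dendritic cells are known for, was represented by 1 and 2 UMIs in meninges and 0 and 1 in spleen. Plasmacytoid dendritic cells were seen in meninges only (4 and 1 cells, 63 and 33 UMIs of GPR183, none of CCR7). Of the markers set for plasmacytoid cells, IL3RA had no UMI in that gate and CLEC4C none in channel 2, so the gate rests on fewer genes than were set. In the dendritic gate all 4 markers were found in meningeal channel 1, and CLEC10A was at 0 in channel 2.

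Immediate early genes, which are switched on within minutes of stimulation or of tissue handling, moved with the tissue. Their summed level, over the 22 genes of the list, was 7705 to 12823 CPM in the meningeal channels and 1700 to 2368 CPM in the splenic channels of the 6 gates tested. Over all genes tested, 15% were called higher in FCER2+ B cells and 1435 of 9078 in GZMB+ cells. Of the list members tested in FCER2+ B cells, 20 of 21 were higher in meninges and none lower. Their median was 3.51 against -0.0044 over all genes tested. In GZMB+ cells 17 of 19 list members were higher. The largest at a mean log2 CPM of 4 or more in FCER2+ B cells were the transcription factor genes NR4A2 (5.63 ± 0.14), NR4A3 (5.54 ± 0.15) and FOS (5.50 ± 0.20). In GZMB+ cells they were NR4A3, for which no fold is given since neither splenic channel held a UMI, ATF3 (4.95 ± 0.36) and FOS (4.93 ± 0.10), each difference from edgeR on the log2 scale. Their part in the receptor differences was not tested beyond the comparison that follows.

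Cells with at most 5 immediate early UMIs per 1000 were therefore compared alone, an alternative chosen after seeing the data. In FCER2+ B cells these were 245 and 255 meningeal and 1608 and 1847 splenic cells, with CCR7 at 133 and 119 CPM against 19.9 and 20.1 CPM. Their tissue difference was 2.71 for CCR7 and 1.48 for GPR183, both past the edgeR threshold and both smaller than in all cells. The median immediate early share of these cells was still 3.19 and 3.24 per 1000 in meninges and 1.49 and 1.45 in spleen, so the groups were not equal in it.

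The GPR183 difference was also smaller in the other gates run: 0.76 in IGHM+ FCER2- B cells, 2.73 in IGHM- B, 1.51 in atypical B and 1.18 in GZMB+ cells, all past the edgeR threshold. CCR7 was 2.37 in IGHM+ FCER2- B, 3.66 in IGHM- B and 2.94 in atypical B cells. CD44 turned to -0.27 in IGHM+ FCER2- B cells (adjusted p = 0.168) and was 0.74, 2.08, 1.20 and 1.44 in FCER2+ B, IGHM- B, atypical B and GZMB+ cells. CCR6 was -0.55 in FCER2+ B and -2.01 in IGHM+ FCER2- B cells, again past the edgeR threshold.

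**Figure D3:**
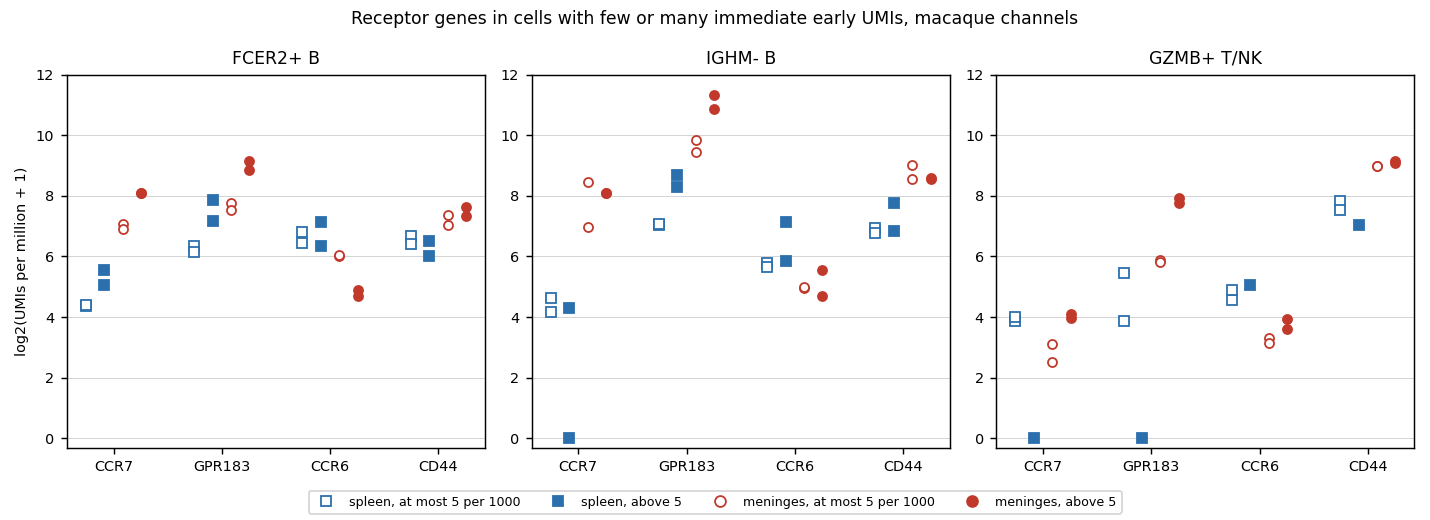
Level of 4 receptor genes, on the scale log2(CPM + 1), in cells with at most 5 (open) or more than 5 (filled) immediate early UMIs per 1000, for 3 macaque gates. Each point is 1 channel with at least 20 such cells (red circles meninges, blue squares spleen). GPR183 is higher in the filled than in the open meningeal points in all 3 gates, and open meningeal points of CCR7 lie above both kinds of splenic points in FCER2+ and IGHM- B cells.

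Among meningeal FCER2+ B cells, those with a UMI of CD83, an activation gene that is itself on the immediate early list, had 253 and 245 CPM of CCR7 and those without it 38.7 and 35.9 CPM. The splenic values were 20.7 and 23.4 against 21.3 and 17.4 CPM. The CCR7 level thus differed across the CD83 split in both meningeal channels, and the cells without CD83 still lay above both splenic channels. The split was chosen with these levels known.

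In cells thinned to 1000 UMIs, CD44 was found in a larger share of meningeal B cells with CCR7 than of those without it. Of FCER2+ B cells with CCR7, 18.6 and 34.8% also had CD44, against 8.47 and 11.3% of those without CCR7. In atypical B cells the values were 52.9 and 53.1% against 27.2 and 25.0%. The direction was the same in these 2 gates of spleen. There FCER2+ B cells had 11.5 and 17.4% against 8.18 and 7.16%, and atypical B cells 50 and 50% against 14.1 and 15.6%. Splenic IGHM- B cells of channel 1 and other B cells of channel 2 went the other way, with 1 CCR7 cell each. These are counts within single libraries and are given without a test. Cells with both were 16 and 23 in meningeal FCER2+ B, and 3 or 4 in each splenic channel of the 2 gates.

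Other receptors and adhesion genes, from lists, moved in both directions. Of 24 further positioning receptors, 10 passed the filter in FCER2+ B cells, 6 of them higher and 1 lower in meninges (median 0.51). Beside these, 15% of all genes tested in that gate were called higher and 10.3% lower. In GZMB+ cells 11 passed, 4 higher and 2 lower (median 0.41), beside 1435 higher and 933 lower of all 9078 genes tested. The largest differences below are those of the listed receptors. The largest in FCER2+ B cells were P2RY8, a confinement receptor of germinal centres, at 1.19 ± 0.12, CXCR4, the receptor for CXCL12, at 1.16 ± 0.09, and the prostaglandin receptor PTGER4 at 0.91 ± 0.10. In GZMB+ cells CXCR4 led with 3.52 ± 0.08, followed by PTGER4 with 1.20 ± 0.12 and S1PR1, which guides exit into blood and lymph, with 0.76 ± 0.24.

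Of 16 adhesion and entry genes, 14 were tested in FCER2+ B cells, with 5 higher and 4 lower, and 16 in GZMB+ cells, with 3 higher and 4 lower. Among all genes tested, 15% were called higher and 10.3% lower in FCER2+ B cells. In GZMB+ cells 1435 of 9078 were higher and 933 lower. The 3 higher adhesion genes of GZMB+ cells were 18.8% of the list, near the share of all genes. CD69, an early activation antigen that holds cells in tissue by binding S1PR1, was higher by 3.19 ± 0.11 in FCER2+ B cells and 3.05 ± 0.08 in GZMB+ cells. ITGA6 (1.95 ± 0.15) and ICAM1 (1.64 ± 0.16) were higher in FCER2+ B cells, and ITGA6 also in GZMB+ cells (1.15 ± 0.37). Of 16 genes on the ligand side, 3 passed the filter in FCER2+ B cells, with none called, and 2 in GZMB+ cells, where the lyase SGPL1 was lower by 0.47 ± 0.16 (adjusted p = 0.0495, edgeR).

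The genes whose levels ran most like each receptor over 38 macaque gate-by-channel sums, by Pearson's r of log2(CPM + 1), were PECR (0.872), PNO1 and EGR2 for CCR7, and SOCS3 (0.856), RNASE4 and ZNF331 for GPR183. CCR6 was nearest to RPS20 (0.885), NUDT3 and RPL10A. S1PR5 was nearest to NKG7 (0.915), a gene used to set the T/NK gate, and CD44 to GPR65 (0.956), ANXA1 and SRGN. The sums share libraries, depth and tissue, so these values describe likeness only.

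Mouse B cells were gated as pro-B (Dntt), large pre-B (Vpreb1 and Igll1 with cycling genes), small pre-B (Rag1 without Ms4a1), Rag1+ Ms4a1+ B, Fcer2a- Ms4a1+ B and Fcer2a+ B, with Fcer2a the mouse CD23 gene. The mouse library gave 1 value per gate, with no replicate and no test, and its 95% Poisson and exact binomial intervals cover counting error only. Ccr7 lies at chr11:99144196-99155077 (minus strand), Gpr183 at chr14:121952551-121965195 (minus strand), Ccr6 at chr17:8236043-8257141 (plus strand), Cd44 at chr2:102811141-102901665 (minus strand) and S1pr5 at chr9:21242912-21248443 (minus strand) of GRCm38 in GENCODE M21. Gpr183 overlaps Ubac2 on the opposite strand, and no source used here says if counting used the strand. S1pr5 and Cd44 each overlap a gene model on the opposite strand as well.

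Ccr7 was higher in later than in earlier B cell stages of the mouse meninges. It stood at 19.4 CPM (95% interval 15.4 to 24.2) in resting pro-B, 7.73 CPM (5.39 to 10.8) in cycling pro-B and 27.7 CPM (25.3 to 30.2) in large pre-B cells. Small pre-B cells had 94.3 CPM (89.5 to 99.4), Rag1+ Ms4a1+ B cells 206 CPM (193 to 219), Fcer2a- Ms4a1+ B cells 285 CPM (276 to 294) and Fcer2a+ B cells 579 CPM (559 to 600). The intervals of these last 4 gates did not overlap. After thinning, 2.30% of resting pro-B, 8.18% of small pre-B and 36.3% of Fcer2a+ B cells had a Ccr7 UMI (9.21, 29.9 and 81.6% unthinned). Myeloid progenitors, which should lack it, had a Ccr7 UMI in 1.10% of thinned and 13.2% of unthinned cells.

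Gpr183 was low in all early stages and high in Fcer2a+ B cells. It was 8.10 CPM (5.58 to 11.4) in resting pro-B, 7.09 CPM (5.81 to 8.58) in small pre-B and 24.2 CPM (21.7 to 27.0) in Fcer2a- Ms4a1+ B cells, and 216 CPM (204 to 228) in Fcer2a+ B cells. The highest levels were those of Cd8b1+ T cells, 297 CPM (283 to 310), and other T cells, 259 CPM (251 to 268), with innate lymphoid cells at 164, NK cells at 141 and plasmacytoid dendritic cells at 109 CPM. Within other T cells, those without an Nkg7 UMI had 483 CPM and those with one 140 CPM. Only 9 conventional dendritic cells were found, with 17 Gpr183 UMIs and no Ccr7 UMI.

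Ccr6 was concentrated in 2 gates, innate lymphoid cells with 33.4 CPM (25.6 to 42.8) and Fcer2a+ B cells with 31.7 CPM (27.1 to 36.8), whose intervals overlapped. No other gate with at least 50 cells was above 6.14 CPM, and small pre-B cells had no Ccr6 UMI, which allows up to 0.201 CPM. S1pr5 was close to absent: NK cells held 4 UMIs (2.47 CPM, 0.672 to 6.31), other T cells 4 and Cd8b1+ T cells 3.

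Cd44 followed another order in mouse B cells than in macaque. Fcer2a+ B cells had 36.9 CPM (31.9 to 42.3), below Fcer2a- Ms4a1+ B cells with 57.5 CPM (53.5 to 61.6) and small pre-B cells with 75.0 CPM (70.7 to 79.5). In macaque meninges small pre-B cells were below FCER2+ B cells in both channels. The 2 species were not tested against each other, since their tables, ages, sexes and gates differ. Plasmacytoid dendritic cells had the most Cd44, 301 CPM (284 to 318), followed by NK cells with 177 CPM (157 to 199) and other T cells with 161 CPM (155 to 168).

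**Figure D4:**
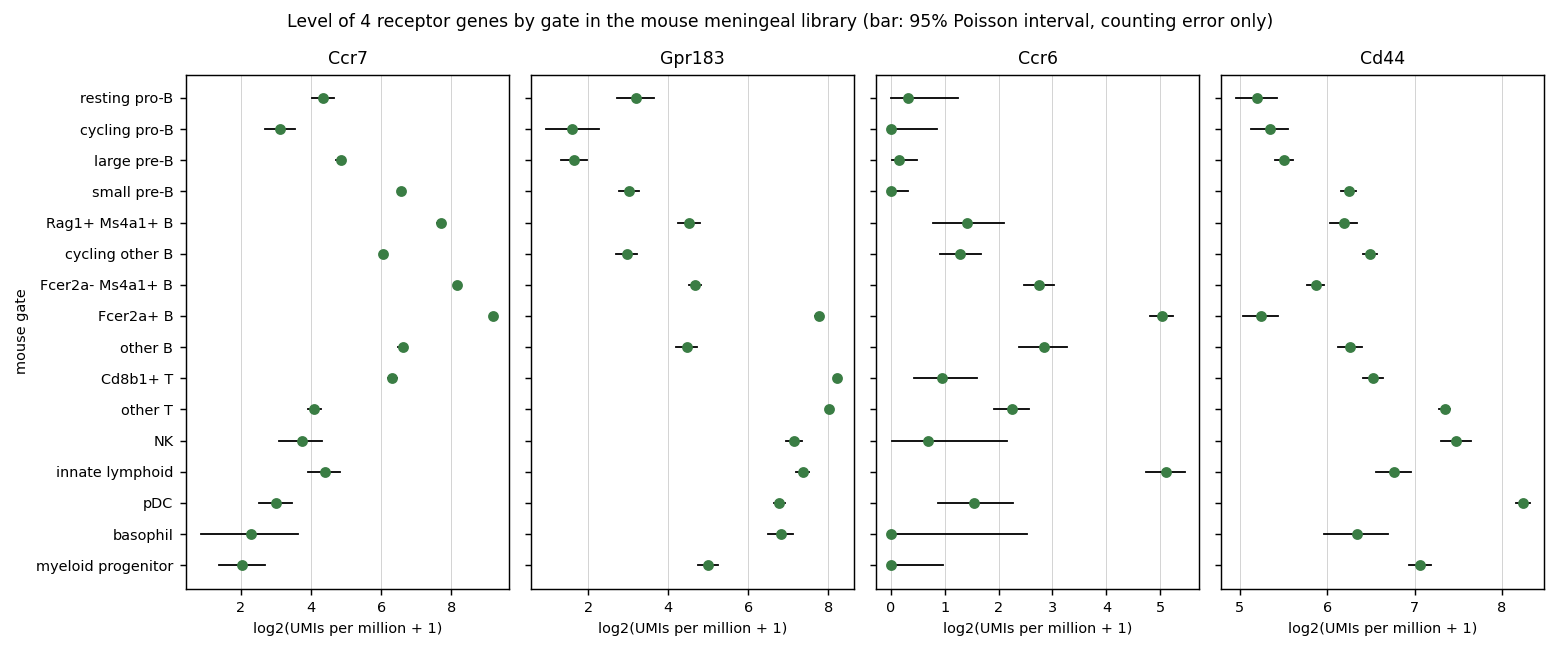
Level of Ccr7, Gpr183, Ccr6 and Cd44 in 16 gates of the mouse meningeal library, on the scale log2(CPM + 1), with 95% Poisson intervals that cover counting error only. Ccr7 is low in pro-B and highest in Fcer2a+ B cells, Gpr183 is high in T, NK and innate lymphoid cells and in Fcer2a+ B cells, and Cd44 is lower in Fcer2a+ B than in small pre-B cells.

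Immediate early genes also differed between the mouse gates, with 1504 CPM in large pre-B, 8515 CPM in small pre-B, 7148 CPM in Fcer2a- Ms4a1+ B and 10409 CPM in Fcer2a+ B cells. Fcer2a+ B cells with a Cd83 UMI had 638 CPM of Ccr7 (613 to 663) and those without it 416 CPM (384 to 451). Their part in the order of the Ccr7 levels was not tested.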

How the data were processed

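Raw UMI counts for each gene in each barcode were deposited by the authors; Cell Ranger and the build mm10 are named for all libraries per the submitters' processing notes, and neither its version nor the macaque reference is given in the sources used here. Macaque tables hold no gene found in fewer than 3 cells, and an unlisted gene was taken as 0. The 5 genes, the gene lists and the gates were chosen with earlier results of these data known. Cells needed 300 or more genes and no more than 10% mitochondrial UMIs. A cell took a lineage with at least 2 marker UMIs and at most 0.25 times as many from any other lineage, which also removed mixed doublets; no doublet caller was run. Counts were summed per channel and gate, for gates with at least 50 cells. The sums were tested by edgeR 4.0.16 (R 4.3.3) with TMM scaling, its default filter on low counts and quasi-likelihood tests, and p-values were adjusted by Benjamini-Hochberg over every gene tested, at 0.05. The comparisons were meninges against spleen within a gate, gates against FCER2+ B cells within a tissue, and the interaction of both, the latter 2 kinds with the channel as a block. DESeq2 1.42.0 was an alternative, with others named in the closing section. From each list the text names the 3 genes of largest absolute difference that were called, at a mean log2 CPM of 4 or more, in FCER2+ B and GZMB+ cells; of these, 1 gene is not reported here. For shares, each cell was thinned to 1000 UMIs. Intervals and floors (3 counts) cover counting error only. Tested on simulated counts with 200 changed genes, edgeR recovered 86% of 2-fold and 100% of 4-fold changes over 9632 genes of FCER2+ B cells, and 73 and 96% over 8808 genes of GZMB+ cells. It also called 10 unchanged genes in the first simulation and 18 in the second. The 2 channels of a tissue differed by more than sampling noise (chi-square per degree of freedom 2.31 in meninges and 5.15 in spleen). Python 3.11.15, numpy 2.4.6, scipy 1.17.1, pandas 2.3.3 and matplotlib 3.10.9 were used.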

Additional observations from a re-analysis of the deposited data

Results flagged for a closer look

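Tissue differences of the receptor genes differed between gates by the interaction test of edgeR with the channel as a block, each read against FCER2+ B cells. The difference between meninges and spleen was larger in IGHM- B cells by 1.57 for GPR183 and 1.03 for CD44, and larger in other B cells by 1.36 for GPR183 and 0.81 for CD44 (log2). In GZMB+ T/NK cells it was lower by a log2 value of -3.58 for CCR7 and higher by 0.69 for CD44. In IGHM+ FCER2- B cells it was lower by -1.09 for CCR6. Each was picked out because the test of the difference itself passed 0.05 after adjustment. With cells thinned to 1000 UMIs none of the 3 CD44 differences passed (adjusted p 0.134 in IGHM- B, 0.868 in other B and 0.0509 in GZMB+ cells, edgeR), and with strict gates those of other B (0.17) and GZMB+ cells (0.0698) did not. Without the channel block the CCR6 difference did not pass (0.0856). The other 3 kept their calls under the alternatives run. In each alternative the IGHM- and other B gates were still set by IGHM UMIs at full depth, which differed between tissues. The IGHM+ FCER2- gate was likewise set by FCER2 and IGHM UMIs at full depth. The GZMB+ gate pools cells with and without CD3 UMIs, whose CCR7 levels differed, and the part of their mix was not tested. The shared comparison with FCER2+ B cells means that these values are not independent of each other.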

How the results depend on the processing

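Among values of the receptor genes between tissues under the alternatives, 296 kept their direction and side of the threshold, 15 lost and 2 gained a call, and 4 turned sign. Mouse levels were read again with strict gates and with a stricter cell filter. Of these values 78 stayed inside the Poisson interval of the main level and 38 moved out of it. Ccr7 moved in 6 gates with strict gates and in 6 with the stricter filter, and Gpr183 in 6 and 8. Genes called between tissues fell with DESeq2 to 1193 of 2484 in FCER2+ B, 1712 of 3411 in IGHM+ FCER2- B, 686 of 1705 in IGHM- B, 500 of 1494 in atypical B, 232 of 688 in other B and 1065 of 2368 in GZMB+ cells. With cells thinned to 1000 UMIs they were 802, 1480, 631, 417, 170 and 1281. In cells low in immediate early UMIs, an alternative chosen after seeing the data, they were 625 in FCER2+ B, 202 in IGHM- B and 111 in atypical B; other B cells were too few. Strict gates left 448 in other B cells. Without 1 channel the counts ran from 2253 to 2940 in IGHM+ FCER2- B, 0 to 480 in other B and 1537 to 2034 in GZMB+ cells; the lowest came without meningeal, splenic and meningeal channel 2.

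CD44 in IGHM+ FCER2- B cells was 0.15 thinned, -0.27 in cells low in immediate early UMIs and 0.39 to 0.57 without 1 channel. CCR6 in atypical B cells was -0.75 with no filter (called) and -1.34 to 0.56 without 1 channel. CCR6 in other B cells was not called with DESeq2 (-1.47), strict gates (-1.06) or cells of at least 2000 UMIs (-1.35, added after seeing the data), nor without 1 channel (-1.57 to -1.28). In that gate without 1 channel CCR7 was 3.36 to 4.52, CD44 1.55 to 1.94 and GPR183 3.46 to 3.92, and none was called without splenic channel 2. CCR6 in GZMB+ cells was not called with DESeq2 (-1.09), thinned (-0.63) or, in a range of -1.26 to -0.91, without splenic channel 2. Uncalled values turned sign for CCR7 (0.27, strict gates) and S1PR5 (0.13, cells low in immediate early UMIs) in GZMB+ cells.

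For receptor genes compared between gates of a tissue, 217 values kept their direction and side of the threshold under the alternatives. A call was lost in 16 and gained in 11, so some gate calls did not hold throughout, and 12 values turned sign. Between gates of the meninges, uncalled values turned sign for CCR6 in IGHM- B (0.10 thinned) and IL7R+ T cells (0.056 strict, 0.33 thinned), CCR7 in other B (0.014 without the replicate block) and GPR183 in GZMK+ cells (0.15 thinned). In spleen they did for IGHM+ FCER2- B cells in CCR6 (-0.0069 without the block, -0.037 with no filter, -0.15 strict, -0.10 thinned) and CCR7 (0.12 strict, 0.046 thinned), and for CCR7 in IGHM- B cells (0.0033 strict). The CCR6 interaction of other B cells was 0.33 with strict gates. Thinned, the CD44 interactions of IGHM- B, other B and GZMB+ cells lost their calls (0.71, 0.26 and 0.60) and those of GPR183 in GZMB+ (1.58) and CD44 in IGHM+ FCER2- B cells (-0.88) gained one. Strict gates ended the CD44 calls of other B (0.62) and GZMB+ cells (0.47), and leaving out the replicate block that of CCR6 in IGHM+ FCER2- B cells (-1.08). The cause was not tested.

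Channel numbers do not pair the tissues (correlation of deviations -0.144 to -0.007). With the channel number as a replicate block the counts were 2341, 3534, 1822, 1657, 791 and 2138 in the gate order above, and no call of a receptor gene between tissues changed. With crossed numbers, added after seeing the data, they were 2675, 3833, 2033, 667, 633 and 2231.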
